A study of Mus musculus with 12 samples.

Results

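Oxidative phosphorylation is carried out by 5 protein complexes of the mitochondrial inner membrane, and the genes measured here encode their nuclear-encoded subunits together with a few assembly factors. A gene belonged to the group if its only symbol in the platform annotation began with Nduf followed by a, b, c, s or v, was Sdha, Sdhb, Sdhc or Sdhd, or began with Uqcr, Cox4 to Cox8 or Atp5. Where a gene had several probe sets, the one with the highest mean intensity stood for it. The rule found 89 genes of the 19938 with a single symbol, and 87 of them were among the 13956 genes bright enough to be tested. Complex I had 41 of these genes, complex II 4, complex III 8, complex IV 19 and complex V 17. The 41 of complex I include the 7 assembly factors Ndufaf1 to Ndufaf7, which are not part of the finished complex. Ndufa4 and Ndufa4l2 were counted with complex IV, where the protein encoded by Ndufa4 is known to reside. Cyc1 and the subunits encoded by mitochondrial DNA fall outside the rule. A further 6 probe sets, of Cox7c, Ndufb4 and Ndufs5 with their near-identical copies, listed several symbols and were not used.

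Complex I takes electrons from NADH, complex II takes them from succinate, and both pass them to ubiquinone. Complex III hands them on to cytochrome c and complex IV to oxygen, and complexes I, III and IV pump protons as they do so. Complex V, the ATP synthase, lets the protons flow back through its membrane ring and makes ATP. Several complex IV subunits exist as a widely expressed form and a form restricted to muscle, lung or testis. Nuclear genes for these subunits are known targets of the transcription factors NRF1, GABP of the ETS family, YY1 and the oestrogen-related receptors, with PGC-1 proteins (Ppargc1a, Ppargc1b) as coactivators.

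The series compared wild-type mouse embryonic fibroblasts with fibroblasts labelled as knockout for MLL1, a histone H3 lysine 4 methyltransferase encoded by Kmt2a. All cells, of both genotypes, were grown with 5% fetal bovine serum (FBS) and 5% newborn calf serum (NCS) and given a shock of 50% horse serum for 2 h, which synchronises circadian clocks, and RNA was taken at CT18 or CT30, that is 18 h or 30 h after the shock. Each of the 4 groups, wild type 18 h, wild type 30 h, knockout 18 h and knockout 30 h, had 3 arrays. The labels name neither the number of lines or embryos behind each genotype nor the allele, and no unshocked cells are in the design, so p-values refer to the scatter among arrays, part of which may be technical, and a difference between genotypes cannot be told apart from a difference between cell lines.

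Values are array intensities on a linear scale, and differences are given as log2(intensity + 16), which understates the change of dim genes. The array medians lay between 273.3 and 311.8. The probe set of Kmt2a read 2100 to 2824 in wild type and 1960 to 2174 in knockout at 18 h (log2 difference -0.19, adjusted p = 0.108), and 2069 to 2155 against 1338 to 1584 at 30 h (-0.57, adjusted p = 0.000111). No source says whether this probe set covers the part removed in the knockout, so the reading does not check the genotype. Markers of other cell types also differed between the genotypes. The summed intensity of 16 fibroblast markers was 69194 to 73595 in wild type and 62720 to 67972 in knockout, that of 5 neural markers 746 to 1004 against 5852 to 6815, that of 8 muscle markers 2937 to 3443 against 5168 to 5517, and that of 6 adipocyte markers 7564 to 8598 against 968 to 1241. The rise of the muscle sum lay mostly in Tnnt2 (mean intensity 69.6 and 85.8 in wild type at 18 h and 30 h, 1919 and 1974 in knockout). The 7 muscle markers tested had median differences of 0.11 and 0.04, with 2 higher at 18 h, and 3 higher and 1 lower at 30 h. Of the neural markers 3 of 4 tested were higher at each time, and of the adipocyte markers 3 of 3 were lower. The filter for testing used the mean over all 12 arrays. A marker dim in either genotype could thus pass through the other, as Tnnt2 did, with wild-type means under the filter of about 175. These counts are therefore no independent support for a difference between the genotypes. The fibroblast markers went both ways. Of 13 tested, 5 were higher and 6 lower at 18 h, and 5 higher and 7 lower at 30 h. Their differences ran from -3.22 to 3.74 at 18 h and from -2.93 to 4.33 at 30 h. Sums of macrophage and blood markers were highest at knockout 18 h, at 2158 to 3804 against 1575 to 2004 in the other groups, mostly through Cd68 (mean 2305 against 1175 in wild type at 18 h). Sums of 5 epithelial markers were 2903 to 3578 in wild type and 3654 to 4101 in knockout at 18 h, and 3691 to 3995 against 3496 to 4085 at 30 h. Those of 5 endothelial markers were 590 to 707 against 764 to 899 at 18 h, and 594 to 698 against 657 to 754 at 30 h. For both lists the genotypes did not overlap at 18 h and overlapped at 30 h. The part that these differences have in the results below was not tested, and an intensity has no zero from which the absence of a marker could be read. In bulk RNA, more mitochondria-rich cells and more transcript per cell cannot be told apart.

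The oxidative phosphorylation genes changed in both directions in the knockout, and mostly by little. At 18 h, 17 of the 87 tested genes were higher in knockout and 20 were lower (adjusted p under 0.05, limma with Benjamini-Hochberg adjustment over all 13956 genes), which is 42.5% called. Over all genes tested 26.3% were higher, 33.8% lower and 60.1% called in either direction. At 30 h, 16 were higher and 18 lower, or 39.1% called, against 24.3% higher, 28.6% lower and 52.9% in either direction over all genes. With quantile scaling of the arrays the split was 22 higher and 15 lower at 18 h and 20 and 12 at 30 h. All genes shifted as well under this scaling. Their counts went from 3672 higher and 4712 lower to 4267 and 4254 at 18 h. At 30 h they went from 3390 and 3992 to 3994 and 3583. The median difference of the group was -0.04 at 18 h and 0.02 at 30 h, beside -0.03 and 0.02 for all genes, and the group's median thus lay close to that of all genes at both times.

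The sizes of the differences were smaller than those of the array at large. The median absolute log2 difference was 0.22 at 18 h and 0.21 at 30 h, against 0.31 and 0.25 over all genes, and the 90th percentile was 0.51 and 0.43 against 1.26 and 1.06. A single gene, Cox6b2, was called with a fitted difference of at least 2-fold at each time, and its wild-type readings lie under the filter and cannot be told from background. Of all genes 14.4% were past that size at 18 h and 11.0% at 30 h. Above the 50th percentile of mean intensity, 69.7% of all genes and 45.0% of 80 members were called at 18 h, and 62.0% and 41.2% at 30 h. The median absolute differences there were 0.37 for all genes and 0.23 for members at 18 h, and 0.30 and 0.22 at 30 h. This filter does not match the genes for intensity, and the part that intensity has in the sizes was not tested.

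**Figure D1:**
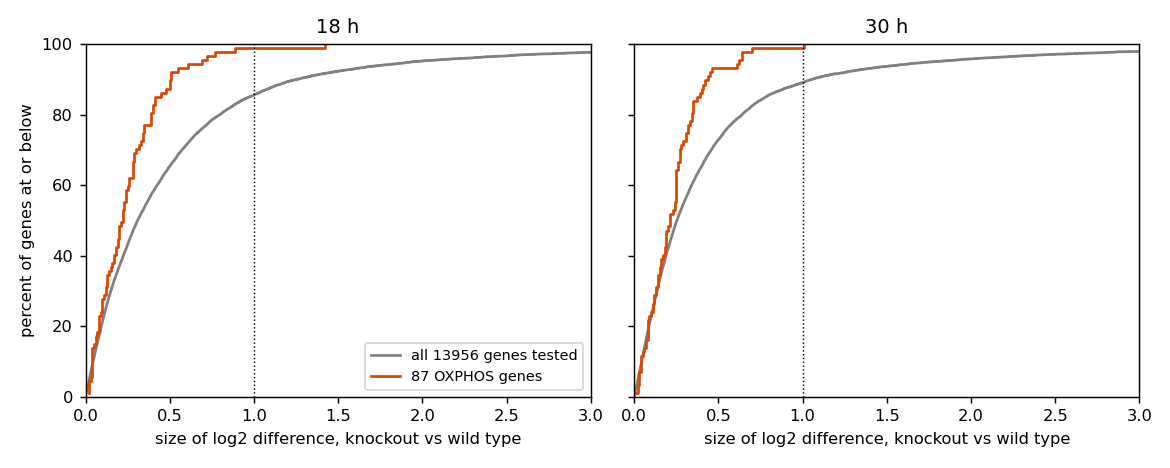
Cumulative share of genes (vertical axis, percent) by the absolute log2 difference between knockout and wild type (horizontal axis, cut at 3) at 18 h and 30 h; the dotted line marks 2-fold. The curve of the 87 oxidative phosphorylation genes rises faster than that of all 13956 genes tested, with medians of 0.22 against 0.31 at 18 h and 0.21 against 0.25 at 30 h.

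The 18 h and 30 h comparisons share no arrays, but the fit used a single estimate of the spread from all 12 arrays. The number of lines behind each genotype is not given, so the times cannot be taken as independent replication of a genotype difference. Of the genes higher in knockout, 13 were called at both times, which is 76.5% of those at 18 h and 81.2% of those at 30 h. Over all genes these shares were 71.7% and 77.7%. They were Ndufs8, Ndufv3, Ndufc2, Sdhb, Sdhd, Uqcrc1, Uqcrc2, Uqcrh, Cox5a, Cox6b1, Cox6b2, Atp5a1 and Atp5mpl. Of the genes lower in knockout, 11 were called at both times, 55.0% of those at 18 h and 61.1% of those at 30 h, against 69.2% and 81.7% over all genes. They were Ndufaf2, Ndufaf7, Ndufs3, Ndufs4, Ndufb10, Ndufb2, Ndufb9, Cox6c, Atp5h, Atp5j and Atp5j2. None of the 87 was called in opposite directions, and 40 (46.0%) were called at neither time, against 30.6% of all genes. Each of complexes I, IV and V held genes that were higher at both times and genes that were lower at both times, and among the genes called at both times those of complexes II and III were higher.

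**Figure D2:**
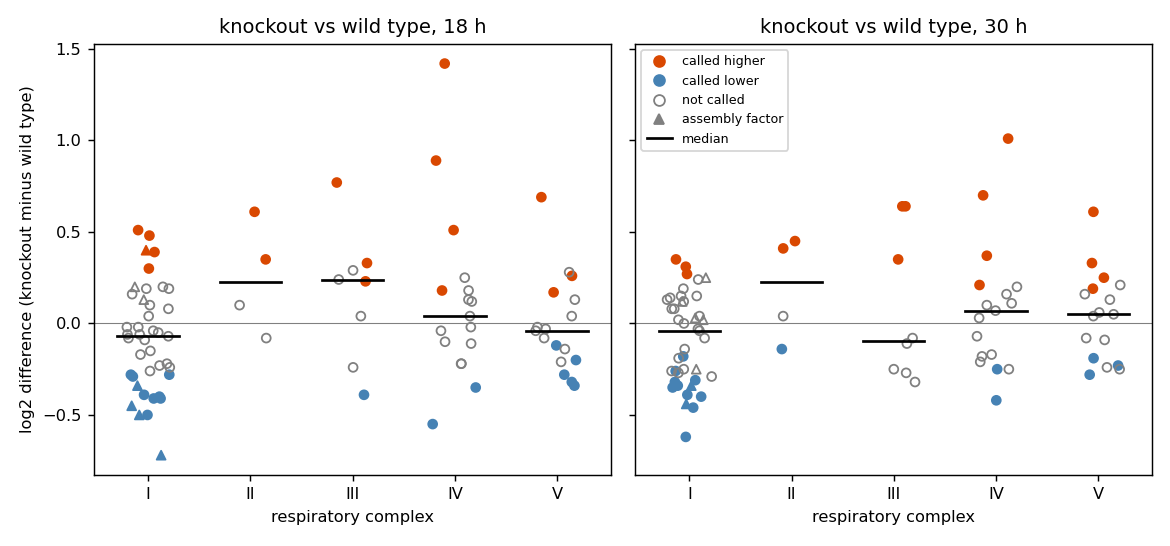
Log2 difference, knockout minus wild type (vertical axis), for each of the 87 tested genes by complex (horizontal axis) at 18 h and 30 h; filled points were called, triangles are assembly factors and bars are medians. Points lie on both sides of 0 in every complex, and the highest point at both times is Cox6b2 at 1.42 and 1.01.

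One array stood apart in these genes. Knockout 30 h replicate 1 was the highest of its group in 78 of the 87 genes (89.7%), against 31.9% of all genes tested. In the mean over the 80 tested subunits, set against the wild-type 18 h mean, this array lay at 0.274 and its group's other arrays at 0.049 and -0.012, while over all genes the 3 arrays lay at -0.066, -0.055 and -0.047. In each of the 5 complexes it was the highest of the 12 arrays. Replicate 3 was likewise the highest of its group in 67 genes at knockout 18 h, 60 at wild type 30 h and 53 at wild type 18 h (77.0%, 69.0% and 60.9%, against 28.6%, 33.5% and 34.5% of all genes). The genes of the group thus moved together between replicate arrays, by amounts as large as many of the differences between genotypes. Without knockout 30 h replicate 1, the 30 h comparison gave 9 higher and 27 lower genes, with a median difference of -0.07. Over all 13956 genes it gave 3204 higher and 3864 lower, against 3390 and 3992 with this array, and a median of 0.03. In either direction 41.4% of the members and 50.6% of all genes were called. The 9 higher members were all among the 16 called with this array, and the calls of Atp5g1, Atp5mpl, Atp5pb, Cox5b, Cox6b1, Ndufs8 and Sdhb ended. Of the 27 lower genes, 17 were among the 18 called with it, and 10 were added. At 18 h, leaving out any one array moved neither count by more than 1.5 times.

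**Figure D3:**
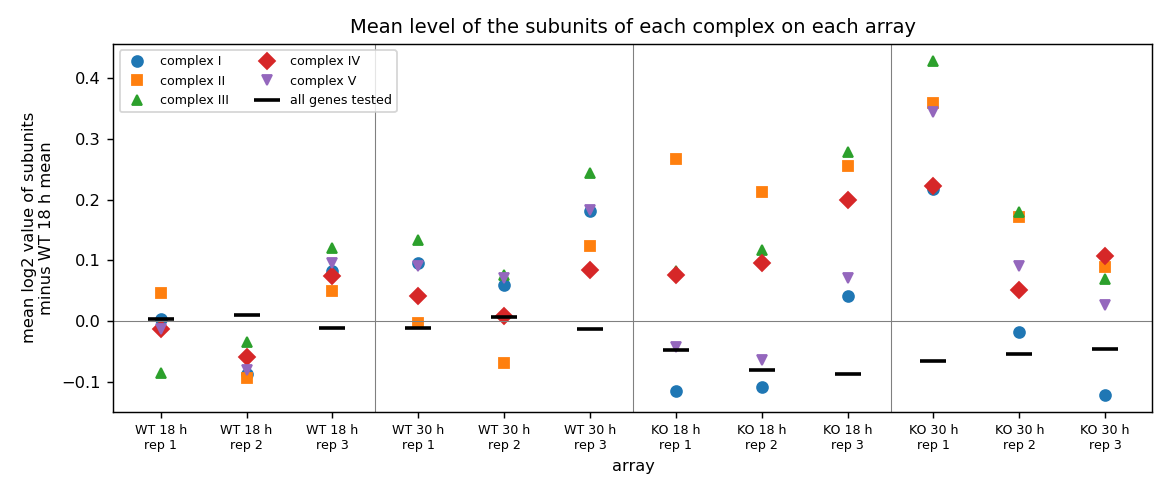
Mean log2 value of the tested subunits of each complex (vertical axis, set against the wild-type 18 h mean, assembly factors left out) on each of the 12 arrays (horizontal axis); black bars show the mean of all genes tested. Knockout 30 h replicate 1 is the highest array in all 5 complexes, from 0.217 in complex I to 0.429 in complex III, while its mean over all genes is -0.066.

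The promoters of the genes were examined for the letters bound by the factors named above, because the genes with the clearest differences rose and fell side by side. RefSeq windows (GRCm38.p6) of 250 bases before to 50 after the annotated start were at hand for 73 of the 89 genes, in 78 windows. Motifs were searched on both strands. The NRF1 letters GCGCATGC occurred in 15.4% of these windows and in 2.71% of all 32851, the ETS letters CCGGAAG in 23.1% and 8.86%, the YY1 letters AANATGGC in 23.1% and 6.05%, and the oestrogen-related receptor letters AAGGTCA in 8.97% and 4.72%. A match is a description of the letters and not a site. The 18 genes with the ETS letters included 6 that were higher and 4 that were lower in knockout at 18 h, and the 18 with the YY1 letters 3 and 6. Of the 12 with the NRF1 letters 2 were higher (Uqcrc1 and Sdhb) and 1 lower (Ndufaf4), and of the 7 with the receptor letters 1 was higher and 2 were lower. Motifs may overlap each other in a window. At 30 h the higher and lower counts were 5 and 5 with the ETS letters and 2 and 5 with the YY1 letters. They were 2 and 3 with the NRF1 letters and 1 and 1 with the receptor letters. Genes with each kind of letters thus went both ways, as did the group, with 17 of 87 higher and 20 lower at 18 h. Over all genes tested 26.3% were higher and 33.8% lower at 18 h. A link between letters and direction was not tested.

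Windows of 6 genes described below follow, 5′ to 3′ in the direction of transcription, with matches to any of these motifs in capitals. Sdhb was higher and Ndufs3 lower in knockout, and both hold the ETS letters. Uqcrc1 was higher and Ndufaf4 lower at 18 h, and both hold the NRF1 letters, as does Sdhb. Ndufs4, also lower, holds the YY1 letters just after its start, and Cox6b2, with the largest fitted difference of the group, holds none of the 4 motifs.
Sdhb, chr4:140961021-140961320, plus strand: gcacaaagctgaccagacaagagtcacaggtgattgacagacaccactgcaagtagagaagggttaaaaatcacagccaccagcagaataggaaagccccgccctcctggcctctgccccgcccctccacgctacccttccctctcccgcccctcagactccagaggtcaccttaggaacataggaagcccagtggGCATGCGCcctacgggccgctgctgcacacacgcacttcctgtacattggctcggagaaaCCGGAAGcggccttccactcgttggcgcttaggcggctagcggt
Ndufs3, chr2:90904672-90904971, minus strand: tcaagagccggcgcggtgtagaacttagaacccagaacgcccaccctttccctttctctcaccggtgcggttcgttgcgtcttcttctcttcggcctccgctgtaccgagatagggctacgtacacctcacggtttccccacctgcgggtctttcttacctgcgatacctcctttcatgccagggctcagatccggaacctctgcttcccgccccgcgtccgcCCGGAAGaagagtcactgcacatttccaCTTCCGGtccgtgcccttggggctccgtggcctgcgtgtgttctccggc
Uqcrc1, chr9:108936398-108936697, plus strand: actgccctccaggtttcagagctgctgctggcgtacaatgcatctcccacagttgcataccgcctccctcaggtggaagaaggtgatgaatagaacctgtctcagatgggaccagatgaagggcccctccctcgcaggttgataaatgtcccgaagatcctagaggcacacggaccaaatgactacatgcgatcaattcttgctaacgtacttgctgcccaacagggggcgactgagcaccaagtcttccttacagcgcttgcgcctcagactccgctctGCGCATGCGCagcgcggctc
Ndufaf4, chr4:24897833-24898132, plus strand: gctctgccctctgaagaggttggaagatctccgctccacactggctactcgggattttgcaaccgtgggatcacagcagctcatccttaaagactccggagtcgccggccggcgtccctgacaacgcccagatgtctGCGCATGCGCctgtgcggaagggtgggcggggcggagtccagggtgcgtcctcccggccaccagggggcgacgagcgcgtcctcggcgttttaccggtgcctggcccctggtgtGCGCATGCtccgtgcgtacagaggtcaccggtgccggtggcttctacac
Ndufs4, chr13:114388045-114388344, minus strand: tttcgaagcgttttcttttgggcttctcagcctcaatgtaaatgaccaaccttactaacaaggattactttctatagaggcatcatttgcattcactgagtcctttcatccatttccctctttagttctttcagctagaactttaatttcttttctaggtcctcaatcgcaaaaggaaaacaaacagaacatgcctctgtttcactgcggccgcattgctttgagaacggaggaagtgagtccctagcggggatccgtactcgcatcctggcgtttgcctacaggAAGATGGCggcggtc
Cox6b2, chr7:4753045-4753344, minus strand: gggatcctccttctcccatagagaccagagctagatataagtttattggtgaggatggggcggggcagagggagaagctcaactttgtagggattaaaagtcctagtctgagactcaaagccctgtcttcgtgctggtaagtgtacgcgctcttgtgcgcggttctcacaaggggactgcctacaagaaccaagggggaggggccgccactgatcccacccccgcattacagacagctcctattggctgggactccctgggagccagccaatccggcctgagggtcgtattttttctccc

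Complex I had more genes lower than higher in the knockout at both times. Of its 41 genes, 5 were higher and 12 lower at 18 h, and 3 higher and 12 lower at 30 h. The lower genes made up 29.3% of the complex at each time, close to or below the 33.8% and 28.6% of all genes, and the higher ones 12.2% and 7.32%, against 26.3% and 24.3%. The hydrophilic arm, which carries the NADH site and the iron-sulfur clusters into the matrix, had 2 of 15 subunits higher and 4 lower at each time. The membrane arm, which pumps the protons, had 2 of 18 higher and 4 lower at 18 h, and 1 higher and 6 lower at 30 h. The medians of all 41 were -0.07 and -0.04. Without knockout 30 h replicate 1 the 30 h count was 2 higher and 16 lower, and without wild-type 30 h replicate 3 it was 2 and 7.

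Ndufs3, a core subunit of the hydrophilic arm, read 2272, 2391 and 2572 in the wild-type arrays at 18 h and 1812, 1663 and 1972 in the knockout arrays. At 30 h it read 2619, 2489 and 2777 against 2249, 1911 and 1877. Every knockout array was below every wild-type array of its time. The log2 differences were -0.41 ± 0.09 (SE; adjusted p = 0.000577) and -0.39 ± 0.09 (adjusted p = 0.00116). Ndufs4, an accessory subunit of the same arm whose loss causes complex I deficiency, read 4343, 3924 and 3631 against 2663, 2961 and 3319 at 18 h, and 3717, 3838 and 4452 against 3421, 2700 and 2636 at 30 h. The groups again did not overlap, with differences of -0.41 ± 0.11 and -0.46 ± 0.11 (adjusted p = 0.00297 and 0.00155). The calls of both genes held at both times under every alternative tried.

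Ndufa6, an accessory subunit of the LYR family that binds the acyl carrier protein, differed at one time. At 18 h it read 2692, 2296 and 2277 in wild type and 1958, 2329 and 2248 in knockout, and the groups overlapped. At 30 h it read 2254, 1750 and 2346 against 1673, 1305 and 1142, with all knockout arrays lower. The difference was -0.15 ± 0.13 at 18 h (adjusted p = 0.346) and -0.62 ± 0.13 at 30 h (adjusted p = 0.000675), but the change of the knockout effect between the times did not pass the test (-0.47 ± 0.19, adjusted p = 0.0833). Ndufa5, another accessory subunit of this arm, was lower at 18 h (-0.39, adjusted p = 0.000654) and had a difference of -0.19 (adjusted p = 0.0695) at 30 h.

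The higher genes of the hydrophilic arm were Ndufs8, a core iron-sulfur subunit, and Ndufv3, a small accessory subunit of the NADH-binding module. Ndufs8 read 1752, 1483 and 2079 in wild type and 2415, 2373 and 2596 in knockout at 18 h, without overlap (0.48 ± 0.11, adjusted p = 0.000889). At 30 h it read 2378, 2267 and 2280 against 3236, 2638 and 2541, a difference of 0.27 (adjusted p = 0.0432) that was 0.16 (adjusted p = 0.214) without the first knockout array and lost its call in 9 of 24 alternatives, among them each wild-type 30 h array left out. Ndufv3 read 1886, 1846 and 1928 against 2558, 2294 and 2591 at 18 h and 1483, 1683 and 1685 against 2083, 2114 and 1974 at 30 h. The knockout arrays were all higher at both times (0.39 and 0.35, each ± 0.07, adjusted p = 0.000208 and 0.000778). The catalytic subunits Ndufv1 and Ndufv2, which hold the flavin and an iron-sulfur cluster, had differences between -0.08 and 0.19 that did not pass the test.

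In the membrane arm, Ndufb2 and Ndufb10, accessory subunits of its distal part, had the largest falls at 18 h. Ndufb2 read 509, 613 and 574 in wild type and 392, 354 and 437 in knockout at 18 h (-0.50 ± 0.10, adjusted p = 0.000476), and 479, 555 and 587 against 444, 426 and 399 at 30 h (-0.34 ± 0.10, adjusted p = 0.0118). The groups did not overlap at either time, but the 30 h call ended without wild-type replicate 3 (-0.28, adjusted p = 0.0638). Ndufb10 had differences of -0.40 (adjusted p = 0.00346) and -0.26 (adjusted p = 0.0431), the latter lost in 12 of 24 alternatives. At 30 h the largest falls were those of Ndufb7 (-0.40 ± 0.12, adjusted p = 0.00833) and Ndufb9 (-0.35 ± 0.10, adjusted p = 0.00767). Ndufb8, of the same part of the arm, went the other way, reading 861, 788 and 1071 in wild type and 1134, 1246 and 1513 in knockout at 18 h (0.51 ± 0.14, adjusted p = 0.00447). At 30 h its groups overlapped (0.24 ± 0.14, adjusted p = 0.168). Ndufc2 was higher at both times, by 0.30 and 0.31 (adjusted p = 0.00666 and 0.00731). Ndufab1, the mitochondrial acyl carrier protein that is also a complex I subunit, was not called in either genotype comparison (-0.17 and -0.04).

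The largest fall of all 87 genes at 18 h was in an assembly factor of complex I. At 18 h, 4 of 7 were lower and 1 was higher, and at 30 h 2 were lower. That is 71.4% and 28.6% called, against 60.1% and 52.9% of all genes. Ndufaf1, a factor of the assembly complex that builds the membrane arm, read 1054, 803 and 692 in wild type and 526, 470 and 513 in knockout at 18 h (-0.72 ± 0.12, adjusted p = 9.39e-05). At 30 h it read 801, 714 and 890 against 707, 654 and 642 (-0.25 ± 0.12, adjusted p = 0.101). Ndufaf2, which binds a late assembly intermediate, was lower at both times, with 698, 677 and 636 against 400, 493 and 528 at 18 h and 753, 847 and 832 against 661, 598 and 521 at 30 h (-0.50 and -0.44, adjusted p = 0.000802 and 0.00234). Ndufaf7, a methyltransferase that acts during assembly, was lower by -0.34 ± 0.08 at both times (adjusted p = 0.00209 and 0.00254). Ndufaf3 was higher at 18 h (0.40, adjusted p = 0.013), a call that ended without wild-type 18 h replicate 2 (0.30, adjusted p = 0.0765).

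Outside the symbol rule, 7 further complex I assembly genes were tested. Of these 4 were lower at each time, 2 higher at 18 h and 1 higher at 30 h. That is 85.7% and 71.4% called, against 60.1% and 52.9% of all genes. Tmem186, Tmem126b and Foxred1 had differences of -0.66, -0.65 and -0.39 at 18 h and -0.50, -0.35 and -0.40 at 30 h (largest adjusted p = 0.00509). Ecsit, also known as a signalling adaptor, was higher by 0.40 and 0.54 (adjusted p = 0.00188 and 0.000207). Tmem126b and Ecsit belong with Ndufaf1 to the same assembly complex and differed in direction.

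Complex II, the succinate dehydrogenase of the citric acid cycle, had 2 of its 4 subunits higher at both times. Among all genes 26.3% were higher at 18 h and 24.3% at 30 h. Sdhb, the iron-sulfur subunit, read 863, 931 and 1094 in wild type and 1392, 1402 and 1644 in knockout at 18 h, and 1067, 1007 and 1181 against 1777, 1339 and 1262 at 30 h. All knockout arrays were higher at both times (0.61 ± 0.12, adjusted p = 0.000334, and 0.41 ± 0.12, adjusted p = 0.00939), and the 30 h call ended without knockout replicate 1 (0.26, adjusted p = 0.0627). Sdhd, a membrane anchor that helps to bind haem and ubiquinone, read 1374, 1021 and 1126 against 1520, 1516 and 1439 at 18 h, and 1026, 904 and 1273 against 1710, 1391 and 1288 at 30 h. Its groups did not overlap either, but the highest wild-type array came within a few percent of the lowest knockout array at both times (0.35 ± 0.13, adjusted p = 0.0273, and 0.45 ± 0.13, adjusted p = 0.0073). The 18 h call ended without wild-type replicate 2 (0.26) or 3 (0.33) or knockout replicate 1 (0.34) or 2 (0.34), and the 30 h call without wild-type replicate 2 (0.34, adjusted p = 0.051).

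Sdha, the flavoprotein that oxidises succinate, differed less than Sdhb and Sdhd. It read 4204, 4020 and 4155 against 4089, 3891 and 3729 at 18 h (-0.08 ± 0.05, adjusted p = 0.225) and 4416, 4268 and 4327 against 3899, 3983 and 3897 at 30 h. The 30 h fall of 0.14 was called (adjusted p = 0.0374) but lost in 11 of 24 alternatives, among them every array of its own time left out. Sdhc, the other anchor, had differences of 0.10 and 0.04 with overlapping groups. The subunits of this complex thus did not move by the same amount. Of the 4 complex II assembly factors, 3 were lower at 18 h and 1 at 30 h, against 33.8% and 28.6% of all genes. Sdhaf4, which works on Sdha, was lower at both times by -1.09 and -0.90 (adjusted p = 6.89e-06 and 7.08e-05).

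Complex III had its 2 core subunits higher at both times, against 26.3% of all genes at 18 h and 24.3% at 30 h. Uqcrc1 read 1782, 1793 and 2264 in wild type and 3212, 3199 and 3555 in knockout at 18 h, and 2154, 2349 and 2198 against 3876, 3492 and 3151 at 30 h. The lowest knockout array lay well above the highest wild-type array each time (0.77 ± 0.10, adjusted p = 2.16e-06, and 0.64 ± 0.10, adjusted p = 2.23e-05). Uqcrc2 read 4376, 3873 and 4103 against 4991, 5235 and 5277 at 18 h and 4087, 3817 and 4318 against 5592, 5119 and 4836 at 30 h, again without overlap (0.33 and 0.35, each ± 0.07, adjusted p = 0.000519 and 0.000414). Both genes kept their calls under every alternative tried. Cyc1, which encodes the catalytic cytochrome c1 of this complex, was higher by 0.34 and 0.27 (adjusted p = 0.00545 and 0.0263), while Uqcrfs1, the Rieske iron-sulfur subunit, had differences of 0.04 and -0.08 that were not called.

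The supernumerary subunits of complex III went in different directions. Uqcrh, the acidic hinge subunit, read 2300, 2290 and 2243 in wild type and 2703, 2524 and 2821 in knockout at 18 h, and 1862, 1885 and 2124 against 3378, 2898 and 2878 at 30 h. The gap was wider at 30 h (0.23 ± 0.08, adjusted p = 0.0157, then 0.64 ± 0.08, adjusted p = 2.71e-06), and the difference between the times was itself called (0.40 ± 0.11, adjusted p = 0.0167). The 18 h call ended without knockout 18 h replicate 3 (0.20, adjusted p = 0.0682). Uqcrb, a ubiquinone-binding subunit, read 5718, 6278 and 5104 against 4079, 4167 and 4796 at 18 h, all knockout arrays lower (-0.39 ± 0.08, adjusted p = 0.000264), and had a difference of -0.11 (adjusted p = 0.254) at 30 h. Uqcr10 and Uqcrq had differences of 0.29 and 0.24 at 18 h and of -0.32 and -0.25 at 30 h with overlapping groups, none of them called. Without knockout 30 h replicate 1, Uqcr10 (-0.49, adjusted p = 0.0137), Uqcrq (-0.42, adjusted p = 0.0216) and Uqcr11 (-0.46, adjusted p = 0.0203) were called lower at 30 h, so complex III had 3 lower genes in place of 0. Of 6 complex III assembly genes 4 were lower each time, against 33.8% of all genes at 18 h and 28.6% at 30 h. One was Bcs1l, which inserts the Rieske protein (-0.60 and -0.48, adjusted p = 9.75e-05 and 0.000998), and Ttc19 was higher at both (0.51 and 0.58).

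Complex IV held the largest fitted difference of the group, in a subunit form restricted to testis. Cox6b2, the testis form of subunit 6b, read 172, 146 and 161 in wild type and 435, 430 and 498 in knockout at 18 h, and 146, 154 and 171 against 349, 296 and 354 at 30 h. All knockout arrays were far above all wild-type arrays (fitted log2 differences 1.42 ± 0.10, adjusted p = 3.05e-09, and 1.01 ± 0.10, adjusted p = 2.96e-07). The wild-type readings lie below the intensity of about 175 that served as the filter and cannot be told from background. The gene passed the filter through its knockout arrays, so these differences are not measured folds. Cox6b1, the widely expressed form, was higher too, with 2191, 1972 and 2663 against 3080, 3100 and 3522 at 18 h and 2569, 2515 and 2969 against 4167, 3132 and 3182 at 30 h. Its differences were 0.51 ± 0.12 (adjusted p = 0.00113) and 0.37 ± 0.12 (adjusted p = 0.0137), and the 30 h call ended without knockout replicate 1 or wild-type replicate 1 or 2.

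The other restricted forms gave no call. Cox4i2, the lung and hypoxia form, Cox6a2, Cox7a1 and Cox8b, the heart and skeletal muscle forms, and Cox8c, known from testis, were not called in either genotype comparison, with differences between -0.25 and 0.18. The group means of Cox7a1 (185 to 243) and Cox8b (181 to 214) lay close to the filter of about 175, so a missing call says little. Cox7a1 had differences of -0.22 and -0.21 (adjusted p = 0.0735 and 0.0894) with groups that did not overlap. At 18 h those of Cox6a2 and Cox8b did not overlap either. Cox7b2 read 77.0 to 112 over the 12 arrays and Ndufa4l2 95.3 to 142, and both fell below the filter.

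Of the 10 widely expressed complex IV subunits, 3 were higher and 2 lower at each time. The shares over all genes were 26.3% higher and 33.8% lower at 18 h, and 24.3% and 28.6% at 30 h. Cox5a, which with Cox4i1 forms the first assembly step, had the largest difference after Cox6b2, reading 1085, 996 and 1310 in wild type and 1964, 2042 and 2313 in knockout at 18 h, and 1304, 1228 and 1461 against 2496, 2111 and 1922 at 30 h. The groups were well apart (0.89 ± 0.11, adjusted p = 2.84e-06, and 0.70 ± 0.11, adjusted p = 5.48e-05). Cox4i1 itself read 1502, 1512 and 2152 against 1756, 1758 and 2061 at 18 h, overlapping, with differences of 0.13 ± 0.15 and -0.07 ± 0.15 that were not called. Cox5b, the zinc-binding subunit, had -0.02 at 18 h and 0.21 at 30 h (adjusted p = 0.0316), the latter lost in 5 of 24 alternatives, among them knockout 30 h replicate 1 (0.12) or wild-type 30 h replicate 1 (0.22) or 2 (0.17) left out. Cox8a was higher at 18 h (0.18, adjusted p = 0.0138), against 0.11 (adjusted p = 0.134) at 30 h, and the 18 h call ended without wild-type 18 h replicate 2 (0.11, adjusted p = 0.0908).

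Cox6c, a small regulatory subunit, was the clearest fall in complex IV. It read 10597, 9785 and 10142 in wild type and 6678, 6558 and 7593 in knockout at 18 h, and 11113, 10867 and 9823 against 9448, 8628 and 8655 at 30 h. The knockout arrays were lower each time, by less at 30 h (-0.55 ± 0.06, adjusted p = 1.2e-06, and -0.25 ± 0.06, adjusted p = 0.00358). Cox6a1 had a difference of -0.11 (adjusted p = 0.421) at 18 h and was lower at 30 h, at 3290, 3512 and 3613 against 3196, 2526 and 2163 (-0.42 ± 0.11, adjusted p = 0.00542). Ndufa4 was lower at 18 h (-0.35, adjusted p = 0.0119), a call that ended without wild-type 18 h replicate 3 (-0.30) or knockout 18 h replicate 2 (-0.29), and had -0.18 (adjusted p = 0.185) at 30 h. Cox7a2, Cox7b and the supercomplex factor Cox7a2l were not called in either genotype comparison, with differences between -0.17 and 0.25.

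Among 21 complex IV assembly genes, 2 were higher and 8 lower at 18 h, and 4 higher and 9 lower at 30 h. That is 47.6% and 61.9% called, against 60.1% and 52.9% of all genes. Cox18, which inserts the C-terminal tail of the subunit Cox2, was lower by -0.67 and -0.99, and Surf1, whose loss causes Leigh syndrome in humans, by -0.62 and -0.66 (largest adjusted p = 0.00049). Taco1, an activator of Cox1 translation, was lower by -1.09 and -0.61. Higd1a, a hypoxia-inducible factor that binds complex IV, and Cox11, a copper chaperone, were higher at both times, by 0.81 and 0.88 and by 0.42 and 0.47.

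Complex V had genes in both directions, in its catalytic head as in its stalk and membrane part. Atp5a1, the alpha subunit of the F1 head, read 4194, 3965 and 4520 in wild type and 6710, 6980 and 6731 in knockout at 18 h, and 4471, 4111 and 4638 against 7059, 6709 and 6365 at 30 h. All knockout arrays were higher (0.69 ± 0.06, adjusted p = 7.39e-08, and 0.61 ± 0.06, adjusted p = 4.65e-07). Atp5b, the catalytic beta subunit that pairs with it in the head, did not follow, with 11855, 11460 and 11858 against 10818, 11010 and 10446 at 18 h. Its difference was -0.12 ± 0.04 (adjusted p = 0.0178) at 18 h, a call lost under median scaling, without the intensity trend and without knockout 18 h replicate 3, and -0.08 ± 0.04 (adjusted p = 0.135) at 30 h. Atp5d was higher at 18 h by 0.17 (adjusted p = 0.0175), a call lost in 4 of 24 alternatives, among them wild-type 18 h replicate 2 (0.11) or knockout 18 h replicate 2 (0.15) left out and cyclic loess scaling (0.11), and Atp5c1 and Atp5e were not called.

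In the peripheral stalk and the membrane part, 3 of 7 subunits were lower at each time, none was higher at 18 h and 1 was higher at 30 h. For all genes the shares were 33.8% lower and 26.3% higher at 18 h, and 28.6% and 24.3% at 30 h. Atp5j, the coupling factor of the stalk, read 4923, 4734 and 5021 in wild type and 3822, 3662 and 4071 in knockout at 18 h (-0.34 ± 0.06, adjusted p = 0.000167), and 5310, 5210 and 5367 against 5086, 4450 and 4420 at 30 h (-0.19 ± 0.06, adjusted p = 0.0194). The knockout arrays were lower at both times. Atp5h, the d subunit of the stalk, was lower by -0.32 and -0.28 (adjusted p = 0.0065 and 0.0193) and Atp5j2, the f subunit, by -0.28 and -0.23 (adjusted p = 0.0167 and 0.0466). The groups of both overlapped at 30 h. The 30 h calls were lost in 5 of 24 alternatives for Atp5h, 6 for Atp5j and 11 for Atp5j2, whose 18 h call was lost in 4. Without wild-type 30 h replicate 1 or 3 or knockout 30 h replicate 2 or 3, no complex V gene was called lower at 30 h. Atp5pb, the b subunit of the stalk, was higher at 30 h by 0.19 (adjusted p = 0.0277), a call lost in 6 of 24 alternatives, among them knockout replicate 1 (0.13) or 2 (0.20) or wild-type replicate 1 (0.19) or 2 (0.15) left out.

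The 3 genes Atp5g1, Atp5g2 and Atp5g3 encode the same mature c-ring protein with different import signals. Atp5g1 had differences of -0.04 and 0.25 (adjusted p = 0.787 and 0.0466), Atp5g2 of -0.14 and -0.24 (adjusted p = 0.301 and 0.0713) and Atp5g3 of -0.20 and 0.06 (adjusted p = 0.0433 and 0.548). The 30 h call of Atp5g1 was lost in 10 of 24 alternatives (0.15 without knockout 30 h replicate 1), and that of Atp5g3 at 18 h was lost in 12 of 24 alternatives. Atp5mpl, a small accessory subunit, was higher by 0.26 and 0.33 (adjusted p = 0.0447 and 0.0165). Its 18 h call was lost in 9 of 24 alternatives, and its 30 h call ended without wild-type 30 h replicate 2 (0.29) or knockout 30 h replicate 1 (0.19). Outside the rule, the F1 assembly factor Atpaf1 was lower by -0.67 and -0.31 and Tmem70 by -0.34 and -0.48 (largest adjusted p = 0.00489), while the inhibitor Atpif1 was not called.

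**Figure D4:**
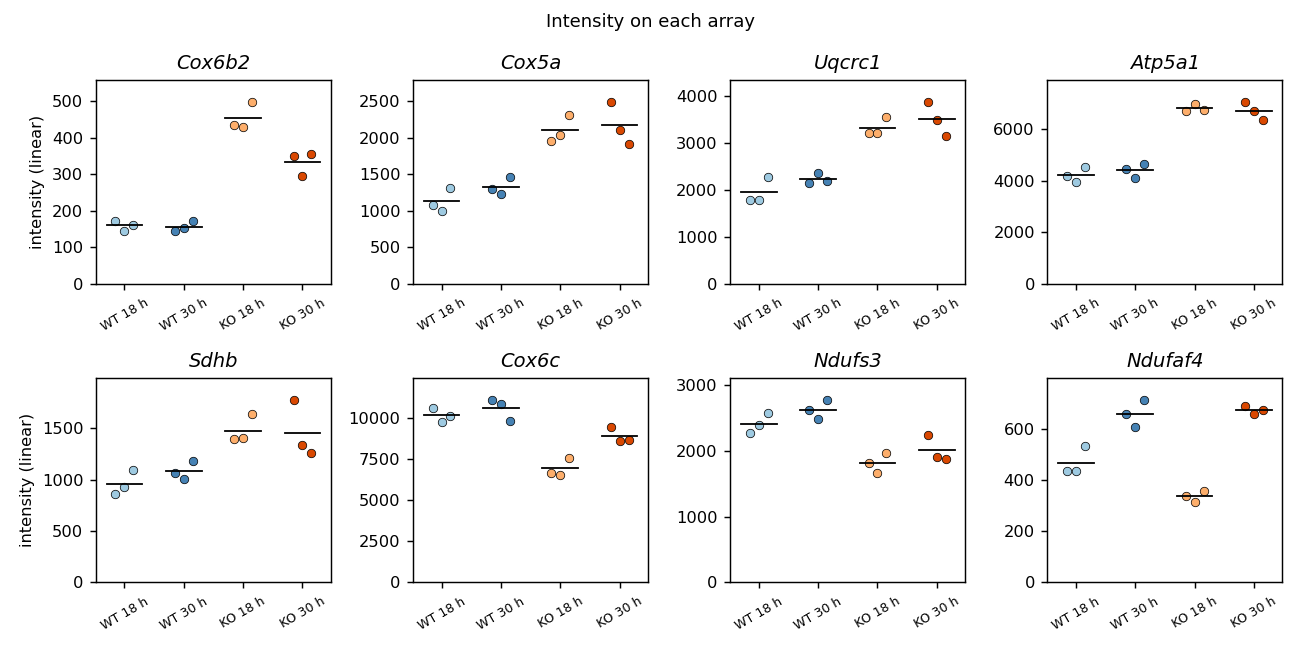
Linear intensity (vertical axes, from 0) on each of the 3 arrays per group (points, replicates 1 to 3 from left to right, with the group mean as a bar) for 8 genes. Cox6b2, Cox5a, Uqcrc1, Atp5a1 and Sdhb are higher in every knockout array, Cox6c and Ndufs3 lower, and Ndufaf4 is lower at 18 h (313 to 357 against 433 to 534) but overlaps at 30 h.

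In wild type few genes passed the test between the times, and most differences were small and positive. A single gene of the 87 was called higher at 30 h than at 18 h and none lower, against 2.41% and 1.55% of all genes (limma). At an unadjusted p under 0.05 there were 14 higher and 3 lower (16.1% and 3.45%, against 9.9% and 8.42% of all genes). The median difference of the group was 0.10, against -0.01 over all genes, and 69 of the 87 differences (79.3%) were positive, against 45.9%. Without wild-type 18 h replicate 3, the highest array of its group in 53 genes, 8 genes were called higher. The gene was Ndufaf4, an assembly factor known as a Myc-responsive gene, which read 433, 433 and 534 at 18 h and 657, 608 and 712 at 30 h (0.49 ± 0.10, adjusted p = 0.0111). All 30 h arrays were higher, but leaving out replicate 1 or 2 of wild type 18 h (0.44 each), or replicate 1 (0.49) or 3 (0.43) of wild type 30 h, ended the call.

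In the knockout, 17 genes were higher at 30 h and 5 lower, against 20.9% and 18.4% of all genes. Ndufaf4 again had the largest rise, from 337, 313 and 357 to 690, 656 and 674 (0.97 ± 0.10, adjusted p = 2.29e-06). Atp5g1 rose from 4620, 3816 and 4227 to 7504, 6024 and 5999 (0.62 ± 0.10, adjusted p = 0.000177), and Ndufs1, the largest iron-sulfur subunit of complex I, from 1286, 1082 and 1115 to 1632, 1600 and 1548 (0.46 ± 0.09, adjusted p = 0.000567). The groups did not overlap in any of these. Ndufa6 fell from 1958, 2329 and 2248 to 1673, 1305 and 1142 (-0.67 ± 0.13, adjusted p = 0.000684). Cox6b2 and Cox7a2l fell by 0.43 and 0.41 on the log2 scale (adjusted p = 0.00304 and 0.00168). Without knockout 30 h replicate 1 there were 10 higher genes, all among the 17, and the median difference of the group was 0.01 in place of 0.09. Over all genes 2478 in place of 2912 were higher, and the median was 0.04 in place of 0.02.

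**Figure D5:**
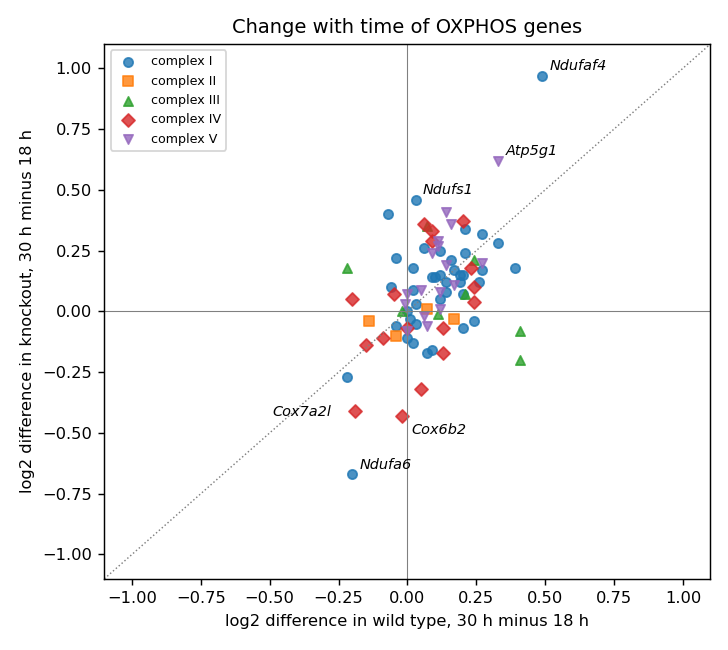
Log2 difference between 30 h and 18 h in wild type (horizontal axis) and in knockout (vertical axis) for the 87 tested genes by complex; the dotted line marks equal change. Ndufaf4 lies highest at 0.49 and 0.97, Atp5g1 at 0.33 and 0.62, and Ndufa6 lowest at -0.20 and -0.67.

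The knockout effect differed between the times in 4 of the 87 genes, each with a more positive value at 30 h, against 10.2% of all genes in that direction and 10.1% in the other. The 4 were Ndufaf4 (0.49 ± 0.14, adjusted p = 0.0205), Ndufs1 (0.43 ± 0.12, adjusted p = 0.0219), Uqcrh (0.40 ± 0.11, adjusted p = 0.0167) and Cox6c (0.30 ± 0.09, adjusted p = 0.0277). At an unadjusted p under 0.05, 7 genes were more positive and 5 more negative (limma), or 8.05% and 5.75%, against 17.4% and 15.4% of all genes. Ndufaf4 and Ndufs1 were lower in knockout at 18 h, by 0.45 and 0.28 (adjusted p = 0.000687 and 0.01), and had differences of 0.03 and 0.15 at 30 h that were not called. The 18 h call of Ndufs1 was lost in 4 of 24 alternatives, among them wild-type 18 h replicate 1 (-0.19) or knockout 18 h replicate 2 (-0.23) left out. All 4 calls ended without knockout 18 h replicate 2, where no member was called.

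Other genes of mitochondrial energy metabolism were counted for comparison. Over all genes tested, 26.3% were higher and 33.8% lower in knockout at 18 h, and 24.3% and 28.6% at 30 h. In either direction 60.1% and 52.9% of all genes were called. The lists in this and the next 2 paragraphs had 41.2% to 68.8% called at 18 h and 35.3% to 60.0% at 30 h. Of 16 citric acid cycle genes, 7 were higher and 4 lower at 18 h, and 6 higher and 3 lower at 30 h. Idh3a, of the NAD-linked isocitrate dehydrogenase, was higher by 0.74 and 0.82, and Ogdh by 0.44 and 0.43. Pcx, which makes oxaloacetate from pyruvate, was lower by -0.53 and -1.50 and Pdhb, of pyruvate dehydrogenase, by -0.47 at both times. Of 17 genes of electron carriers and cristae, 3 were higher and 4 lower at 18 h, and 3 higher and 3 lower at 30 h. Among these Etfb, which carries electrons from fatty acid oxidation, was lower by -0.63 and -0.67, and Coq9, of ubiquinone synthesis, by -0.42 and -0.60. Cycs, the electron carrier between complexes III and IV, had differences of -0.03 and -0.01.

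Of 18 regulators of mitochondrial biogenesis, 5 were higher and 7 lower at 18 h, and 4 higher and 4 lower at 30 h. Ppargc1a was higher by 1.32 and 0.42 (adjusted p = 1.7e-08 and 0.00342) and Ppargc1b by 0.53 and 0.65. Tfam, which packages and transcribes mitochondrial DNA, was lower by -0.65 and -0.66 (adjusted p = 8.2e-06 and 8.84e-06), and Nrf1 by -0.37 (adjusted p = 0.00229) at 18 h with -0.11 (adjusted p = 0.32) at 30 h. Of 10 carriers and outer membrane genes, 3 and then 4 were higher and 2 were lower at each time, with Vdac1, the main outer membrane channel, higher by 0.74 and 0.43.

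Of 77 genes of the mitochondrial ribosome, which makes the subunits encoded by mitochondrial DNA, 14 were higher and 29 lower at 18 h, and 11 higher and 19 lower at 30 h. Mrps6 and Mrpl20 were lower by -2.17 and -1.28 at 18 h and by -1.73 and -0.76 at 30 h, and Mrpl45 was higher by 0.84 and 0.52. In either direction 55.8% and 39.0% were called, against 60.1% and 52.9% of all genes. Between 18 h and 30 h in the knockout, 32 of the 77 rose and 5 fell (48.1% called). Of all genes 20.9% rose and 18.4% fell (39.3% called). The median was 0.23, against 0.02 over all genes.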

How the data were processed

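Total RNA from 12 samples of mouse embryonic fibroblasts was labelled (typically 100 ng each, per the labels' protocols) and measured on 1 array per sample. The deposited values are intensity values on a linear scale, 1 per probe set. The submitters' processing notes name Affymetrix Expression Console (version 1.1) and PLIER (version 2.0). How the authors normalized between arrays is not stated there, and no detection calls were used here.

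Of 35557 probe sets, 21789 carried a single symbol. Genes whose mean lay under the 30th percentile (log2 7.58) were not tested. For log2(intensity + 16), limma (version 3.58.1, R 4.3.3) estimated 4 group means from all 12 arrays, using eBayes with an intensity trend, 8 residual and 7.98 prior degrees of freedom. Moderated two-sided p-values received Benjamini-Hochberg adjustment over 13956 genes, separately for each of 5 contrasts: genotype at 18 h and at 30 h, time in wild type and in knockout, and the change of the genotype effect with time. Calls had an adjusted p under 0.05, and ± marks the standard error. The number of arrays limits the precision. The code was tested on simulated data.

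Named genes were the subunits and assembly factors by role, with values per array for the 2 largest called rises and falls of each complex and for paired isoforms, and up to 3 called genes in each direction from the other lists. The members, lists and this rule were chosen with earlier results of these data known. The 24 alternatives changed the offset, filter, scaling, probe set choice or model, or left out 1 array. Of 17 members with more than 1 probe set, 1 (Cox7a2l) had them disagree in sign at 18 h. At 30 h those of Ndufa11 disagreed, with 0.15 for the probe set used and -0.1 for the other. Signal from near-identical copies elsewhere in the genome cannot be told apart.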

Additional observations from a re-analysis of the deposited data

Results flagged for a closer look

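In 4 genes the knockout effect differed between 30 h and 18 h by the test of the difference itself (limma, adjusted over all genes tested). The log2 change of the effect was 0.49 for Ndufaf4, 0.43 for Ndufs1, 0.40 for Uqcrh and 0.30 for Cox6c. Without replicate 2 of knockout 18 h the values were 0.44, 0.38, 0.36 and 0.26, and none was called. The Ndufaf4 call also ended without replicate 2 of wild type 30 h (0.43), that of Ndufs1 without replicate 1 of wild type 18 h (0.34) or replicate 3 of knockout 18 h (0.40), and that of Uqcrh with median scaling (0.36). That of Cox6c ended with median scaling (0.26), without an intensity trend (0.30), and without replicate 1 of wild type 18 h (0.27), replicate 3 of wild type 30 h (0.25) or replicate 1 of knockout 30 h (0.26).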

How the results depend on the processing

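The 18 h counts of 17 higher and 20 lower genes stayed within 1.5 times under all 24 alternatives. No call changed direction. Leaving out 1 array gave 9 to 19 higher and 9 to 27 lower genes at 30 h, 0 to 8 higher with time in wild type, 10 to 22 higher with time in knockout, and 0 to 6 more positive and 0 to 4 more negative for the difference of effects. The lowest counts at 30 h came without wild-type 30 h replicate 2 or knockout 30 h replicate 1 (9 higher) and without wild-type 30 h replicate 3 (9 lower). With time in wild type the count of 1 became 2 with an offset of 64, the 50th percentile filter, robust eBayes or the replicate block, and 5 with only the groups compared. With time in knockout, 3 genes fell above the 50th percentile filter. For the difference of effects, median scaling gave 2 positive and 1 negative, quantile and loess scaling 2 negative each, and an offset of 64 or no intensity trend 1 negative. With quantile scaling 59.5% of the 18 h calls were higher, against 45.9% as reported. Over all genes these shares were 50.1% and 43.8%. Over all genes tested, the deviations of same-numbered arrays had r from -0.456 to 0.454 over 18 pairs (median 0.008). The replicate 2 arrays of wild type 18 h, wild type 30 h and knockout 30 h had r of 0.454, 0.33 and 0.343 with each other. Arrays of different groups and different replicate numbers had r from -0.398 to 0.463. Among the 87 members, replicate 2 was the highest of its group in 9, 8, 8 and 3 genes (wild type 18 h and 30 h, knockout 18 h and 30 h). That is 10.3%, 9.2%, 9.2% and 3.45% of the members, against 37.3%, 37.9%, 24.9% and 30.3% of all genes. A shared effect of the replicate number was not tested. The replicate block left the genotype counts at 17 and 20 and at 16 and 18. At 30 h it ended the call of Ndufb10 (-0.26, adjusted p = 0.0626). Of the genotype calls, 24 of 37 at 18 h and 17 of 34 at 30 h held under every alternative. The causes were not tested.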
